A study of Homo sapiens with 2 samples.

Results

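OSR2 and OSR1 are the human odd-skipped related genes, a small family of zinc finger transcription factors, and they were followed here in an oral cancer line given an inhibitor of miR-361-3p. The members were all probe sets that the platform annotation gives to OSR2 alone or to OSR1 alone. These genes are 2 of 18239 on the array and hold 5 of its 49386 probe sets, 4 for OSR2 and 1 for OSR1. GFP-SAS, a squamous cell carcinoma line from the tongue that carries green fluorescent protein, received an LNA/DNA antisense oligonucleotide directed at miR-361-3p (inhibitor array) or a non-target one (control array). Both groups were given 25 nM for 24 h, so cells without oligonucleotide were no part of the comparison. Each group was measured on 1 array of this 1 line, and no replicate error, p-value or test across cultures is possible. Values are log2 expression values made with RMA, which corrects background and combines the probes of a set, and differences are inhibitor minus control. The members were picked with these very differences in view, so what follows describes 2 arrays.

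Odd-skipped factors are best known from development. OSR1 marks the intermediate mesoderm and is needed for the heart and the kidney, while OSR2 acts in the mesenchyme of the palate, the tooth and the joints. Both proteins bind DNA through C2H2 zinc fingers and can repress transcription. A microRNA pairs with messenger RNAs mainly through its seed, bases 2 to 8 from the 5′ end, and lowers their level or translation. An antisense oligonucleotide that occupies the microRNA is meant to release those messages.

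The inhibited strand is shown with its sister strand from the same hairpin, because the seed defines which messages could be released. Sequences are from RefSeq (GRCh38.p14, minus strand), 5′ to 3′, with the seed in capitals.
hsa-miR-361-3p (chrX:85903641-85903663): uCCCCCAGgugugauucugauuu
hsa-miR-361-5p (chrX:85903681-85903702): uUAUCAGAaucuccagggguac
The seeds of the strands differ, and 5 of the 7 bases of the 3p seed are C. Of 2370 mature microRNA names in the table, miR-361-3p was the single one with this seed. A message pairs with it through CUGGGGG. Whether OSR2 or OSR1 transcripts hold this site was not analysed here, and the sequence of the oligonucleotide is not given in the sources used here. No level of miR-361-3p itself was analysed here.

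OSR2 was higher on the inhibitor array at every one of its probe sets. The brightest probe set, 11723576_s_at, read 7.50 on the inhibitor array and 5.83 on the control array, a difference of 1.67 (3.18-fold). Probe set 11732663_x_at read 5.75 against 3.90, a difference of 1.85 (3.62-fold). Probe set 11748495_a_at read 5.71 against 3.91, a difference of 1.80 (3.48-fold). These 3 probe sets all lay above the array median on the inhibitor array, and the last 2 of them lay below it on the control array. The dimmest, 11723577_x_at, read 5.35 against 3.75, a difference of 1.60 (3.03-fold). On average OSR2 differed by 1.73 ± 0.12 (SD over 4 probe sets), with means of 6.08 and 4.35. This SD is a technical spread within the arrays and holds no variation between cultures. In RNA from a whole culture, more cells with OSR2 message and more message per cell cannot be told apart.

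OSR1 had 1 probe set, 11724865_at, which read 2.49 on the inhibitor array and 2.60 on the control array. The difference of -0.12 was smaller than the spread between probe sets of one gene, an SD of 0.30 pooled over 11822 genes. Both readings lay near the bottom of the array, at percentile 2.88 and percentile 5.45 of all probe sets, so no fold is given. A change of OSR1 was not detectable at this level. OSR1 is also an older name of the kinase OXSR1, whose 2 probe sets are a separate gene in the annotation and differed by 0.10 and 0.40.

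**Figure D1:**
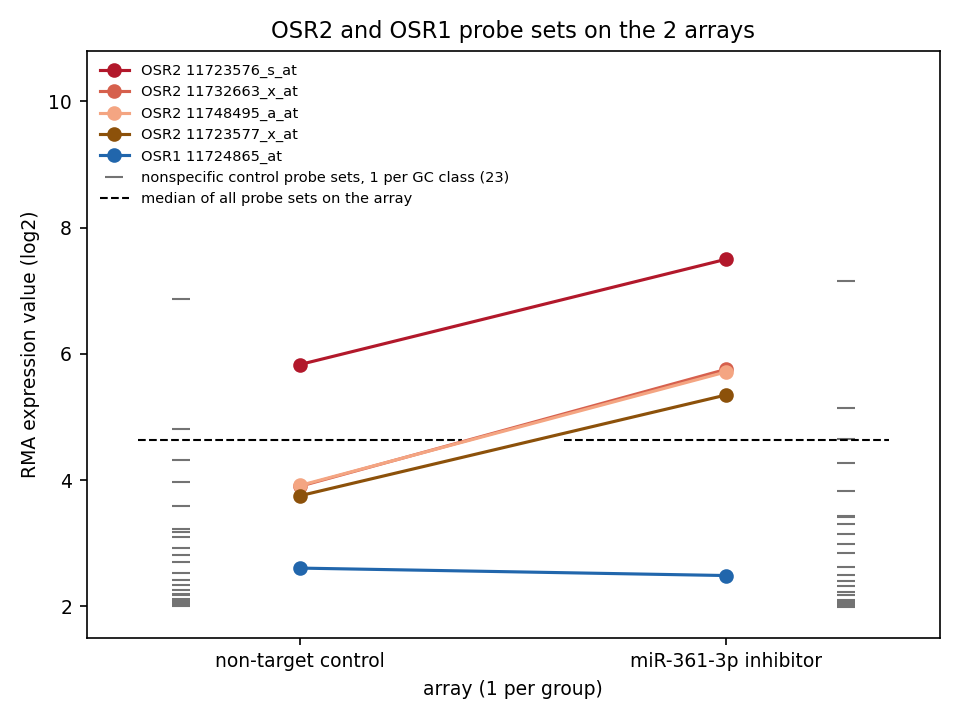
RMA expression value (log2) of each OSR2 and OSR1 probe set on the control array and the inhibitor array, joined by a line per probe set. Grey dashes are the 23 nonspecific control probe sets and dashed lines the array medians (4.63 and 4.64). All 4 OSR2 lines go up by 1.60 to 1.85, while the OSR1 line stays near the lower edge at 2.60 and 2.49.

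The level of OSR2 was read against the controls of the array. The median over all probe sets was 4.64 in inhibited cells and 4.63 in control cells. On the control array the brightest OSR2 probe set lay 1.20 above the median, at percentile 66.3, and the other 3 lay between percentiles 33.4 and 37.0. On the inhibitor array the same probe sets reached percentiles from 61.0 to 83.9. Thus 3 of the 4 lay below the median on the control array, and all 4 lay above it on the inhibitor array.

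Nonspecific control probe sets carry sequences with no target, sorted into 23 classes by the number of G and C bases in the probe. They reached up to 6.87 on the control array and 7.16 on the inhibitor array, in both cases in the class of 25 G and C bases, and their medians were 2.52 and 2.62. On the inhibitor array the brightest OSR2 probe set lay 0.34 above the highest nonspecific control, and the other 3 lay above 22 of the 23. On the control array the brightest lay above 22 of 23 and the other 3 above 19 of 23. On that array 3.75 to 3.91 falls between the classes with 21 G and C bases (3.59) and 22 (3.97). The base composition of the OSR2 probes was not analysed here. By the highest of these controls no OSR2 probe set was shown to be above background on the control array, and 1 of 4 was on the inhibitor array. The folds of OSR2 therefore have no exact size. This bar is strict, since it lay at percentile 77.5 of all probe sets on the control array and 81.0 on the inhibitor array. The next class, with 24 G and C bases, read 4.81 on the control array, below the brightest OSR2 probe set.

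A second set of controls, 17 tag probe sets for sequences not present in human RNA, ran from 2.51 to 4.61 on the control array and from 2.48 to 4.63 on the inhibitor array. All 4 OSR2 probe sets exceeded all 17 tags on the inhibitor array. On the control array they exceeded 15 to 17 of the 17. OSR1 exceeded 1 of 17 tags on each array, and 10 and 12 of the 23 nonspecific controls on the inhibitor and the control array.

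The differences of the OSR2 probe sets spanned 0.26. Levels of different probe sets depend on their probes and are not set against each other here. None of the OSR2 probe sets is a plain _at set. In Affymetrix naming, _a_at sets read several transcripts of one gene, and _s_at and _x_at sets hold probes shared with other transcripts or similar sequences. Probe sets of one gene can share probes, so the 4 readings are not independent.

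Of the 45253 probe sets with 1 gene symbol, 2283 were at least 1.5-fold higher on the inhibitor array, or 5.04%, and 4466 were at least 1.5-fold lower, or 9.87%. All 4 OSR2 probe sets were past 1.5-fold, and the OSR1 probe set was not. Since the members were picked on this contrast, nothing is read from that count. At 3-fold, 27 probe sets of 21 genes were higher (0.0597%), and 4 of the 27 were those of OSR2. No other gene had more than 3 among them. These counts describe the arrays and come from the values that picked OSR2.

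As background for the dim members, among the 22386 probe sets below the median of the control array, 1.97% were at least 1.5-fold higher and 0.0402% at least 3-fold higher, which was 9 probe sets. By suffix, 5.69% of _x_at, 6.52% of _s_at and 4.89% of _a_at sets were at least 1.5-fold higher. At 3-fold the suffix classes lay further apart, with 0.169% of _s_at, 0.0692% of _x_at and 0.032% of _a_at sets higher.

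**Figure D2:**
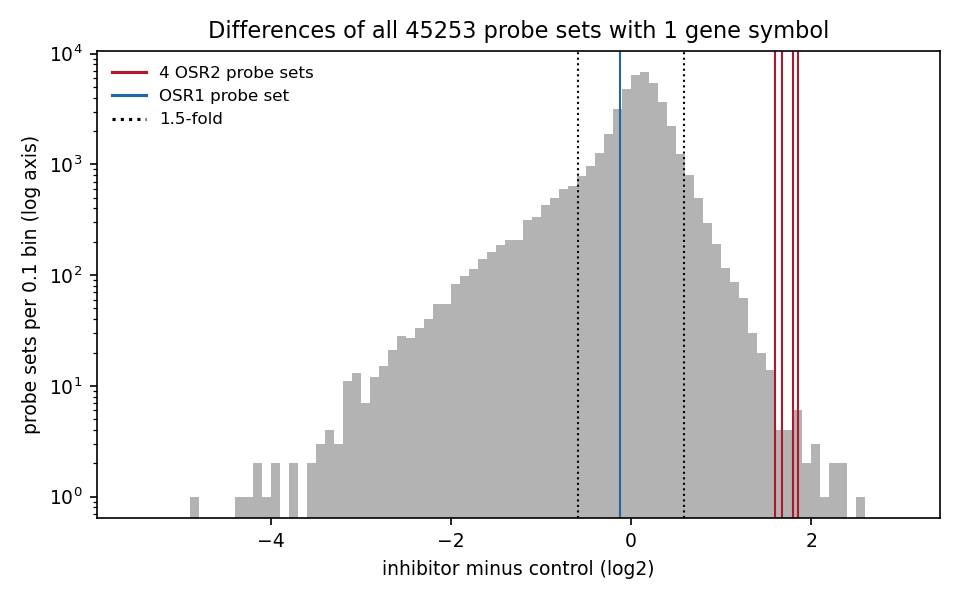
Number of probe sets (log axis) by difference between the arrays, inhibitor minus control (log2), for all 45253 probe sets with 1 gene symbol; dotted lines mark 1.5-fold. The OSR2 probe sets (red, 1.60 to 1.85) lie in the thin upper tail, the OSR1 probe set (blue, -0.12) in the bulk, and the tail of lower probe sets is longer.

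As a gene, with the mean over all its probe sets and no filter on dim ones, OSR2 ranked 4 of 18239 genes by increase. OSR1 ranked 14418. Neither rank is exact, since no OSR2 probe set was above the nonspecific range on the control array and OSR1 was near the bottom of both arrays. The rank of OSR2 also restates how it was picked. The genes had a median difference of 0.10 with quartiles of -0.07 and 0.25, so OSR2 exceeded the median gene by 1.63 and OSR1 lay 0.22 under it. At the gene level 4.40% were at least 1.5-fold higher and 7.37% lower.

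The probe sets of OSR2 were then read beside those of other genes with at least as many. Of 3857 genes with at least 4 probe sets, 32 (0.830%) had every probe set at least 1.5-fold higher and 5 (0.130%) had every one at least 2-fold higher. OSR2 was 1 of the 5, which follows from the values it was picked on. The other 4 genes, named after their values were seen, were SGK1, a kinase induced by serum and glucocorticoids (1.42 ± 0.05, SD over 4 probe sets), ZNF263 (1.30 ± 0.11) and ZNF268 (1.29 ± 0.02), both zinc finger proteins, and ALAS1, the first enzyme of haem synthesis (1.07 ± 0.03). Decreases of this kind were more common, with every probe set at least 2-fold lower in 54 of the 3857 genes (1.40%). The SD of OSR2, 0.12, was below the median SD of 0.18 over these genes. Nothing is read from this, since probe sets of one gene can share probes.

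**Figure D3:**
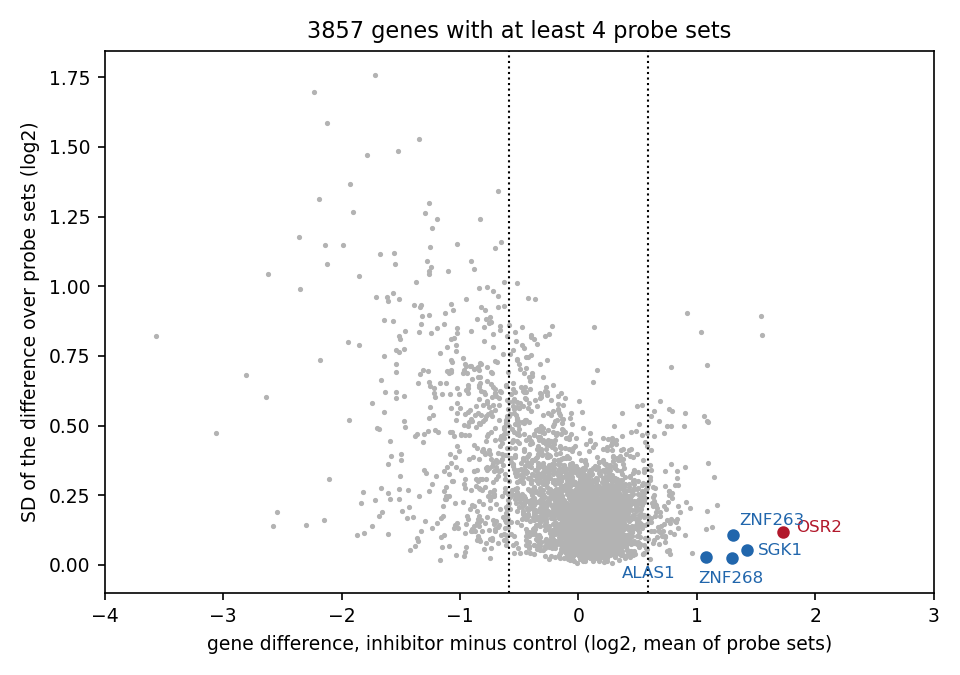
Mean difference (log2, inhibitor minus control) against the SD of the difference over probe sets for the 3857 genes with at least 4 probe sets; dotted lines mark 1.5-fold. The 5 labelled genes had every probe set at least 2-fold higher, and OSR2 lies farthest to the right at 1.73 with an SD of 0.12.

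The genes with values most like those of OSR2 were taken by distance. Likeness was measured as the Euclidean distance between the gene values over the 2 arrays, among genes with at least 2 probe sets. Since the levels of different genes rest on different probes, it is a likeness of array values. The nearest was CYP1B1, a P450 enzyme that the aryl hydrocarbon receptor switches on, at a distance of 0.14 (5.96 against 4.42). Its 5 probe sets ranged from 0.23 to 2.35 and were less uniform than those of OSR2. EXO5, a DNA exonuclease, followed at 0.23 (5.93 against 4.52, 2 probe sets). DDIT3, a transcription factor of the stress response also called CHOP, lay at 0.43 (5.87 against 4.73, 2 probe sets). The zinc finger genes ZNF549 and ZNF473 lay at 0.43 and 0.44. For OSR1 the nearest were UNC13C, CATSPERE, SPAG6, AKAP14 and SLC40A1, at distances from 0.02 to 0.04, and their values from 2.48 to 2.53 on the inhibitor array place them with OSR1 among the dimmest genes.

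The cell type of the arrays was checked against markers. Of the 7 squamous epithelial markers with a probe set of their own, 6 had a probe set above the nonspecific range on both arrays, among them DSP, a desmosomal plaque protein (gene means of 8.42 and 8.82 on the inhibitor and the control array), and CDH1, E-cadherin (6.31 and 6.53). The exception, KRT14, a basal keratin named after its values were seen, read 3.87 and 3.63, below the array median. OSR1 and OSR2 are known from mesenchyme, so fibroblast markers were read beside them. None of the 12 fibroblast and mesenchyme markers was above the nonspecific range on either array. None was past 1.5-fold, against 4.40% of all genes higher and 7.37% lower. As they were not shown to be above background, no lack of change is read from these markers. Their differences ran from -0.26 to 0.19 with a median of 0.10. Their summed level was 7.01 on the inhibitor array and 6.98 on the control array (log2 of the summed linear values). COL6A3 was the single one of the 12 that reached the array median. The 5 leukocyte and 5 endothelial markers were also all within 1.5-fold, with medians of 0.05 and 0.18. None of them was above the nonspecific range on either array, and no lack of change is read from them.

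The genes around the odd-skipped factors in development were read from 7 further lists. Of 80 distinct genes with a probe set, 3 were at least 1.5-fold higher (3.75%) and 2 lower (2.50%), against 4.40% and 7.37% of all genes. Their median of 0.11 was close to the 0.10 of all genes. The share of higher genes was near that of all genes, and nothing particular to these lists is read from either share.

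Groucho and TLE proteins are corepressors that odd-skipped factors of the fly recruit, and HES1 is a repressor that works with them. Of 7 such genes 1 was past 1.5-fold. TLE3 was 1.53-fold higher (6.35 against 5.73, SD of the difference 0.17 over 2 probe sets), and with the difference of the poly-A spikes subtracted it differed by 0.30, short of the threshold. Both of its probe sets were within the nonspecific range. TLE1 differed by -0.46 and HES1 by 0.29, and TLE1 was the single one of the 7 with a value below 0 before the spike difference is subtracted.

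In the palate and tooth mesenchyme, OSR2 works in a network with MSX1, PAX9 and BMP4. Of 15 listed genes with a probe set, 1 was past 1.5-fold. BMP4, a signalling ligand that drives tooth formation, was 1.69-fold higher (6.58 against 5.83, 1 probe set) and, with the spike difference subtracted, differed by 0.43. The homeobox factor MSX1 differed by 0.44 (7.43 against 6.99) and the paired box factor PAX9 by 0.34. BMP4 and PAX9 were within the nonspecific range on both arrays, and their differences have no exact size.

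Secreted antagonists of WNT and BMP and class 3 semaphorins, guidance molecules that also shape mesenchyme, held the largest differences of these lists. SEMA3A read 4.71 on the inhibitor array and 6.67 on the control array, 3.89-fold lower (difference -1.96 ± 0.24, SD over 2 probe sets). SEMA3C read 4.78 against 6.63, 3.61-fold lower, with its 6 probe sets from -2.46 to -0.50. SEMA3B went the other way, 7.50 against 6.39, 2.16-fold higher (1.11 ± 0.17, SD over 3 probe sets). These 3 kept their direction and stayed past 1.5-fold under each scaling tried. SEMA3A was inside the nonspecific range on the inhibitor array, which leaves its fold without an exact size. The other 12 of the 15 genes, all listed WNT and BMP antagonists among them, were within 1.5-fold. Of the 15 genes, 6 had a probe set reaching the array median on at least 1 array, and DKK1 and CHRD were the only antagonists that did. No lack of change is read from the dimmer ones.

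The remaining lists held no gene past 1.5-fold. They were 13 intermediate mesoderm and kidney factors (median 0.13), 14 joint, cartilage and bone factors (0.07), 8 foregut and heart mesoderm factors (0.12) and 9 hedgehog pathway genes (0.08). In that order, 1, 1, 0 and 1 genes had a probe set above the nonspecific range on the inhibitor array, and 1, 1, 1 and 0 on the control array. Most of these genes were thus not shown to be above background, and no lack of change is read from them. Among the first, SIX2, a nephron progenitor factor, differed by 0.27, CITED1 by 0.25 and LHX1 by 0.22. Of the skeletal genes, GDF5, a joint ligand, differed by 0.26 and SOX9, the cartilage factor, by -0.25. RUNX2, the bone factor, differed by -0.23, but its 2 probe sets went opposite ways, at -0.69 and 0.22. NKX2-5, a cardiac factor, differed by 0.43, and WNT2 and GATA4 by 0.26 and 0.22. PTCH1, SMO and GLI3 of the hedgehog pathway differed by 0.23, 0.15 and -0.17, and the 5 probe sets of PTCH1 ran from -0.11 to 0.59. The sign of several of these small differences turns when the spike difference is subtracted, which moves the median gene to -0.22.

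**Figure D4:**
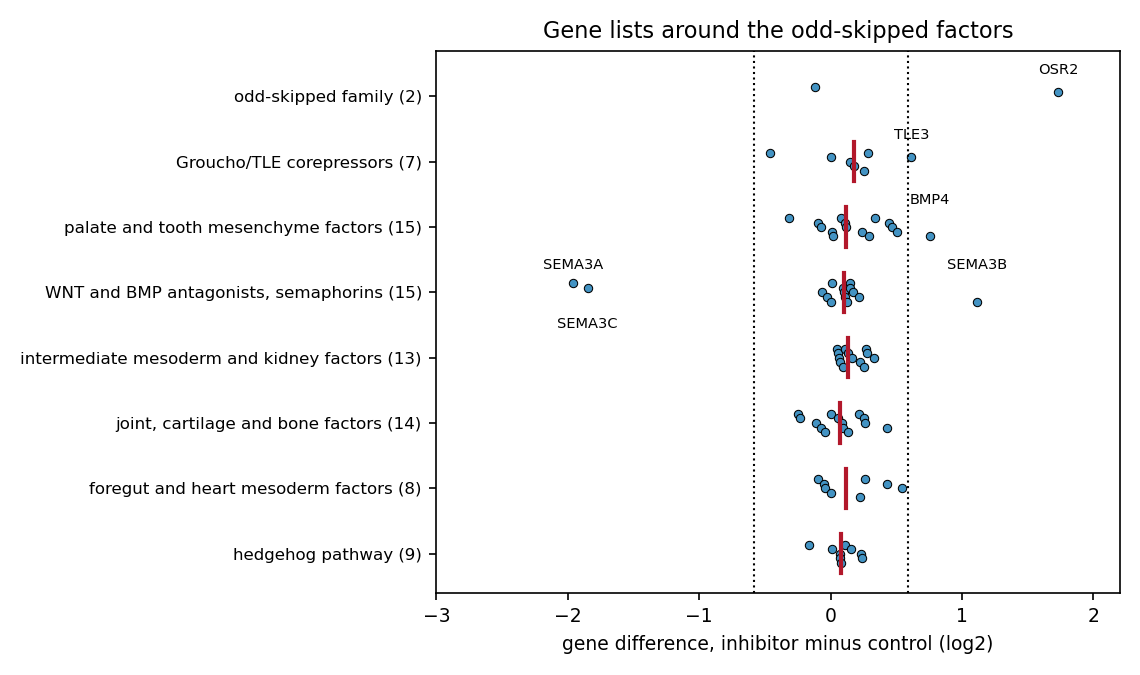
Gene difference (log2, inhibitor minus control) of each list member with a probe set, 1 point per gene, with the number of genes in brackets; red bars are list medians and dotted lines mark 1.5-fold. Besides OSR2 at 1.73, SEMA3A, SEMA3C, SEMA3B, BMP4 and TLE3 lie past the lines.

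The genes beside OSR2 on the chromosome were read next. The 3 nearest protein-coding genes with a probe set on each side were taken in the order of their start coordinates in the RefSeq gene table. Gene ends, strands and overlaps were not used, so this order does not say which gene lies closest to OSR2. KCNS2, a potassium channel subunit, differed by 0.18 (3.73 against 3.56, 2 probe sets). STK3, a Hippo pathway kinase also called MST2, read 5.70 against 7.56 and was 3.65-fold lower (-1.87 ± 0.11, SD over 4 probe sets). STK3 was thus lower where OSR2 was higher, and 0.877% of all genes were at least 3-fold lower. A link between OSR2 and STK3 was not tested. NIPAL2 differed by -0.52, with probe sets from -1.40 to -0.02. On the other side VPS13B was 1.73-fold lower (3.31 against 4.11), with its 6 probe sets from -2.18 to -0.02 and all below the median of the inhibitor array. COX6C, a subunit of the respiratory chain, differed by -0.0029, and RGS22 by 0.03. KCNS2 and RGS22 were also within the nonspecific range on both arrays, and no lack of change is read from them. No neighbour of OSR2 was 1.5-fold higher, but only 4.40% of all genes were, so nothing is read from that count. The 4 STK3 probe sets ran from 3.52 to 7.19 on the inhibitor array, and 1 of them lay above the nonspecific range there. The fold of STK3 therefore has no exact size.

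The neighbours of OSR1 differed by less than 1.5-fold on both sides, from -0.42 for TTC32 to 0.30 for RDH14, a retinol dehydrogenase. OSR1 itself, at -0.12, lay between them.

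**Figure D5:**
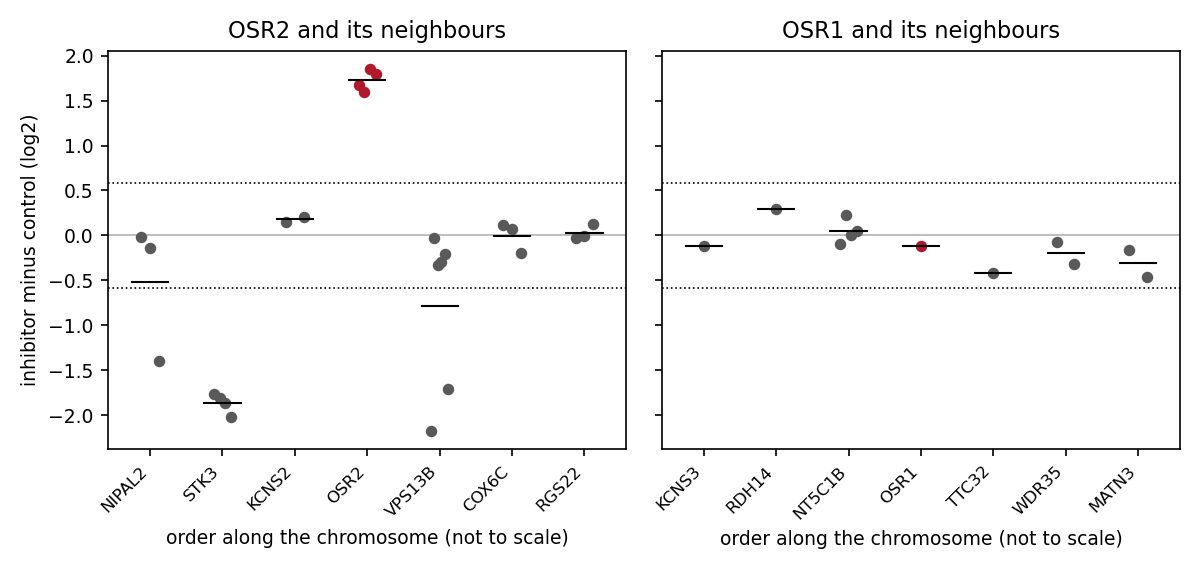
Difference (log2, inhibitor minus control) of each probe set of OSR2, OSR1 and the 3 nearest protein-coding genes on each side, in order of gene start and not to scale. Black bars are gene means and dotted lines mark 1.5-fold. OSR2 (red) stands at 1.73, with STK3 at -1.87, KCNS2 at 0.18 and VPS13B at -0.79.

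GAPDH, a housekeeping enzyme, differed by -0.0047 (1 probe set) and ACTB, cytoplasmic actin, by -0.13 ± 0.01 (SD over 3 probe sets). Poly-A spikes, bacterial RNAs put in ahead of labelling, read 0.32 ± 0.19 more in the inhibitor sample (SD over 12 probe sets), and hybridization controls 0.09 ± 0.10 (SD over 9). With the spike difference taken off, OSR2 differed by 1.41. The part of labelling in the difference of OSR2 was not tested beyond this value.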

How the data were processed

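Affymetrix 3′ arrays measured GFP-SAS cells, 1 array per group, with 10 ng of total RNA labelled with biotin per the labels' protocols. The table the authors deposited gives a log2 value for each probe set, computed with RMA as the submitters' processing notes record. Which RMA version was run, and on which arrays jointly, is not given in the sources used here. After sorting, the arrays never differed by more than 0.11.

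Of 49386 probe sets 93 were controls, and 45253 others had 1 gene symbol in the platform annotation, updated by Entrez ID through the RefSeq table of GRCh38.p14 (45172 matched). A gene value was the mean over all its probe sets, with no filter. A gene was called higher or lower past 1.5-fold. The precision is limited by the number of arrays. The data files name no genome build. Gene starts in the RefSeq table served to order the neighbours and are not printed. Promoter and protein sequences of the members were not used here.

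Members, lists and rules were chosen with earlier results of these data known. Named were the members, up to 3 members per list with the largest absolute difference among genes reaching the array median on at least 1 array, the 5 nearest genes by distance, the 3 neighbours on each side, GAPDH and ACTB. Other genes named are given with their reason or as a range. Alternatives were scalings, probe set choices, summaries and a 2-fold threshold, and the lowess fraction was 0.3. Scripts were tested on simulated data and used Python 3.11.15, numpy 2.4.6, pandas 2.3.3 and statsmodels 0.14.6.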

Additional observations from a re-analysis of the deposited data

Results flagged for a closer look

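Among control probe sets, which enter no gene value, the poly-A spikes and the nonspecific controls rich in G and C read higher on average on the inhibitor array. For the 12 poly-A spike probe sets the mean difference was 0.32. For the 11 nonspecific controls with 15 or more G and C bases the median difference was 0.23, and for the 12 with fewer it was -0.0038. Both values are smaller than the smallest difference of an OSR2 probe set, 1.60. Their part in the difference of OSR2 was not tested.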

How the results depend on the processing

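The difference of OSR2 ran from 1.41 to 1.77 over its alternatives. The filter at the array median is no check of it or of the member count, since 3 of the 4 OSR2 probe sets pass it only through the inhibitor array, where they are higher. It moved by more than the SD over its probe sets, 0.12, with a lowess trend subtracted (1.61) and with the poly-A spike difference subtracted (1.41). OSR1 moved from -0.12 to -0.44 with the spike difference subtracted. The share of all probe sets at least 1.5-fold higher, 5.04%, was 0.784% at 2-fold, 3.01% with the lowess trend, 1.19% with the spike difference subtracted and 8.60% over the probe sets reaching the array median. The count of member probe sets past the threshold was 4 with a 2-fold threshold, centring, the lowess trend and the spike difference subtracted. OSR2 ranked 4 of 18239 genes by increase, and 9 with its brightest probe set as the gene value. Plain _at sets alone could not be run for OSR2, nor could the filter at the array median or leaving out a probe set for OSR1. No paired analysis was possible because the labels give a single array per group, and no array could be left out. No detection call came with the values, so signal over background was read from control probe sets.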
